A study of Mus musculus with 12 samples.

Results

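The nuclear genes for subunits of the mitochondrial respiratory chain and ATP synthase were followed through adult age in mouse liver. Members were chosen by gene symbol alone, as protein-coding rows of the count table named Nduf, Sdh, Uqcr, Cyc1, Cox4 to Cox8 or Atp5 in GENCODE M21. This gave 85 of the 53465 gene rows (21942 of them protein-coding): 37 for complex I, 4 for complex II, 9 for complex III, 18 for complex IV and 17 for complex V. RNA-seq counts were available for 12 livers of C57BL/6N mice, each library from a single animal, with 4 libraries for each age. Young mice were 3 months old, middle-aged mice were 12 and aged mice were 18 months old. The labels name no transgene or treatment, and the study's methods describe its mice as males fed a standard rodent diet. The labels speak of extraction from young and old livers and do not describe the middle-aged ones, while the study describes RNA-seq both of young and old livers from its own cohort and of several ages from a public atlas, so any difference in preparation between ages cannot be told apart from age.

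The respiratory chain sits in the inner mitochondrial membrane. Complex I and complex II take electrons from NADH and succinate, complex III passes them to cytochrome c, complex IV hands them to oxygen, and the proton gradient built on the way drives complex V, the ATP synthase. Most subunits are encoded in the nucleus and imported, whereas a small catalytic set is encoded by mitochondrial DNA, and the liver relies on the chain for gluconeogenesis, fatty acid oxidation and urea synthesis.

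Levels between genes were compared as normalised counts per kb of exonic length, the union of all annotated exons. Of the 85 members, 77 reached a mean of 10 normalised counts over the 12 libraries. The highest levels per kb were those of Cox6a1 (3629), a complex IV subunit, of Atp5a1 (3302) and Atp5b (3182), the alpha and beta subunits of the ATP synthase head, and of Cox4i1 (2814). In complex I the range ran from Ndufb11, at 1556 per kb, to Ndufa4l2, at 8.21, and in complex II from Sdhd, at 1568, to Sdhc, at 603. In complex III it ran from Uqcr11, at 2303, to the core protein Uqcrc1, at 744. In complex V the lowest values were those of Atp5s, at 21.4, and Atp5l, at 2.63. Genes with long annotated exons are placed low on this scale, and Ndufs1, the large iron-sulfur subunit of complex I, stood at 136 per kb although its normalised count in young livers was 1100 ± 94.3 (SD, n = 4).

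**Figure D1:**
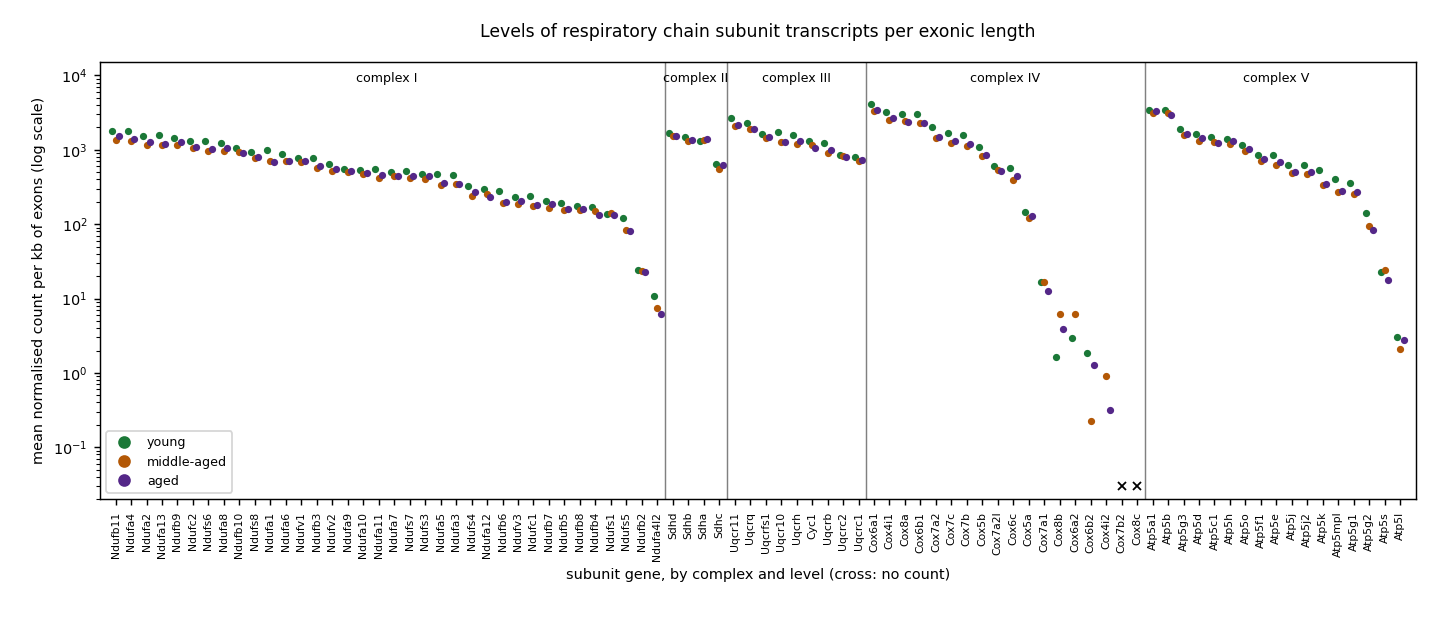
Mean normalised count per kb of exons (log axis) for 84 of the subunit genes, grouped by complex and ordered by level; each dot is the mean of 4 livers of one age, and crosses mark genes without a count. Isoforms of other tissues sit far below their liver counterparts in complex IV, and green dots (young) lie above the other colours for most genes.

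Where a subunit has isoforms of different tissues, the liver form had by far the higher level. Cox4i2, the lung form, was at 0.413 per kb against 2814 for Cox4i1. The heart and skeletal muscle forms Cox6a2, Cox7a1 and Cox8b were at 3.04, 15.4 and 3.93 per kb, against 3629 for Cox6a1, 1669 for Cox7a2 and 2621 for Cox8a. Cox6b2, mainly a testis form, was at 1.12 against 2545 for Cox6b1. Cox7b2 and Cox8c had no count in any library, which with 3 counts as the limit allows up to 0.285 to 0.369 CPM in a library. The 8 members with a mean under 10, namely these 7 genes and Ndufa4l2, were too shallow for a comparison of ages. Atp5l held 201 counts in all, while near-identical processed copies of it held 54.21% of the counts of gene and copies together, so its level is uncertain. The share was 5.62% for Ndufs5 and at most 1.46% for the others.

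Libraries held between 8124312 and 10527159 counts on genes, and the members took 1.175% of these in aged replicate 2 (95% Wilson interval 1.168% to 1.181%) to 1.51% in aged replicate 1 (1.502% to 1.518%), intervals that cover counting error only. All 10 hepatocyte markers had counts, and their summed normalised counts were 830568 to 925118 in the young livers, 862968 to 972023 in the middle-aged ones and 880143 to 1103133 in the aged ones. Young replicate 2 stood apart: mitochondrially encoded genes took 19.2% of its counts, against 5.48% to 10.7% in the other libraries, and synthetic spike-in RNAs 10.6% of gene and spike-in counts together, against 1.59% to 6.23%. Young replicate 3 and middle-aged replicate 1 had counts on 22284 and 19982 genes, against 16361 to 17563 in the others. The counts of called members are therefore also given without these libraries.

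Each library was summarised by the mean deviation of the 77 members from their own mean over the 12 libraries, on the scale log2(normalised count + 1). Young livers were at 0.12, 0.45, 0.14 and 0.05, middle-aged livers at -0.04, -0.10, -0.14 and -0.17, and aged livers at 0.15, -0.32, -0.21 and 0.06. All 4 young livers lay above all 4 middle-aged livers, whereas the aged livers split, with replicates 1 and 4 among the young values and replicates 2 and 3 below every other library. In young replicate 2, 74 of the 77 members were above their own mean, and in aged replicate 2 it was 1 of 77. Complex II varied least among the complexes. Its mean deviation was 0.09 in young replicate 2 and -0.14 in aged replicate 2, where complex IV was at 0.54 and -0.36 and complex V at 0.52 and -0.37. Exonic lengths ran from 1231 to 4126 bases in complex II and from 619 to 3567 in the measured complex IV subunits. In the same libraries, all genes under 1500 bases had median deviations of 0.32 and -0.16, and genes over 4000 bases -0.09 and 0.05. Whether length plays a part in this contrast was not tested.

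**Figure D2:**
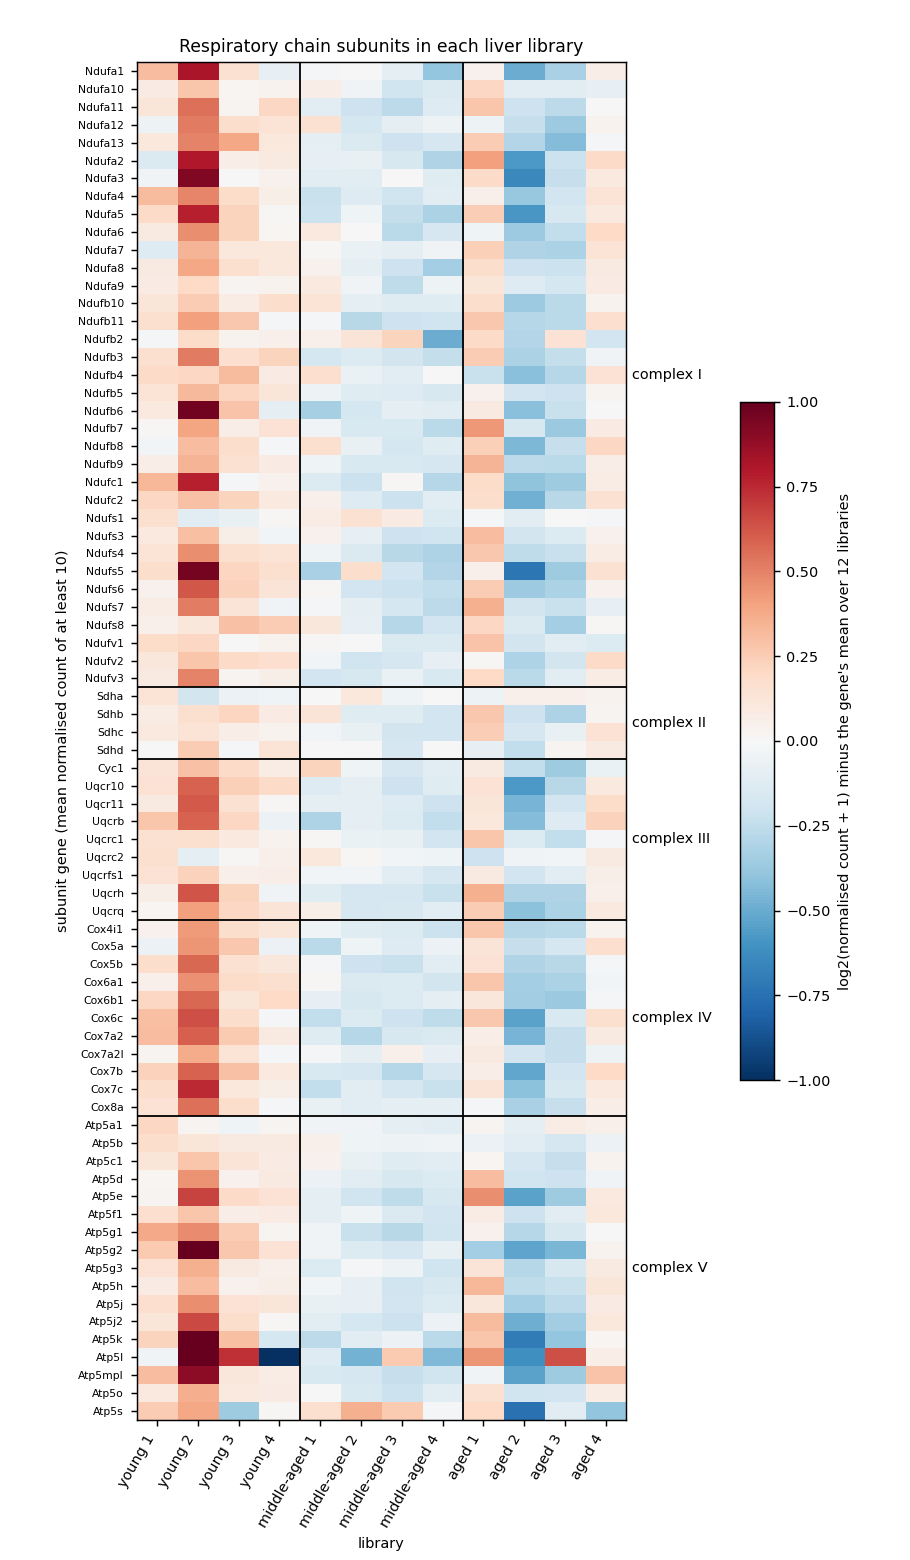
Deviation of each of 76 subunit genes (rows, by complex) from its own mean over 12 libraries, as log2(normalised count + 1), in each library (columns, by age); red is above and blue below the mean, with colours ending at 1 and -1. The column of young replicate 2 is red for 73 genes, the 4 middle-aged columns are mostly pale blue, and aged replicates 1 and 4 differ from aged replicates 2 and 3.

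Subunit transcripts were lower in middle-aged than in young liver. Of 77 members tested, 15 fell (DESeq2, Benjamini-Hochberg adjusted p under 0.05) and none rose. Over all 11333 genes tested, 6.41% were called in either direction and 2.9% as lower. The median log2 fold change of the members was -0.31, a level 19.5% lower, against 0.01 over all genes at a mean of 10 or more, and 74 of the 77 were below 0. At an unadjusted p under 0.05 there were 51 members, all lower, where 2499 of all 11804 genes passed, 1218 of them lower. For 43 of the 77 members (55.8%) every middle-aged liver was below every young liver, where 7.75% of all 11804 genes with a mean of at least 10 showed this. In bulk tissue, fewer cells of a type and less RNA per cell cannot be told apart.

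The 15 calls depended on how the test was made, while the direction did not. Without young replicate 2 only Atp5g1 was called, where 3.08% of all genes were, and the median was -0.22. Without young replicate 3 and middle-aged replicate 1 together it was again Atp5g1 alone, where 2.14% of all genes were called, with a median of -0.35. The edgeR quasi-likelihood test on genes reaching 10 counts in 4 or more libraries called 2.31% of 12174 genes, and Atp5g1 alone among the members, with 48 members at an unadjusted p under 0.05, none of them higher.

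Most subunit transcripts were also lower in aged than in young liver, by less. Against young, 6 of 79 members tested fell and none rose (DESeq2, adjusted p under 0.05), where 3.58% of all 13527 genes tested were called and 1.71% were called as lower. The median was -0.25, or 15.9% lower, and 76 of 77 members were below 0. An unadjusted p under 0.05 was found for 36 members, all lower, where 2048 of all 11804 genes passed, 1011 of them lower. The aged and young groups did not overlap for 9 of the 77 members, each lower in aged, against 3.81% of all genes. This comparison uses the same 4 young livers as the one before and is no independent repeat of it. Without young replicate 2 the median was -0.16 and 2 members, Atp5b and Atp5g2, were called, where 1.92% of all genes were. Without aged replicate 1, the aged liver highest in members, the median was -0.36 with 33 called, while the share of all genes called rose to 10.4%. Without aged replicate 2 or aged replicate 3 it was 1 member, where 2.61% and 1.77% of all genes were called. Filtered edgeR called 1.4% of genes and 0 members, with 32 at an unadjusted p under 0.05.

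Between aged and middle-aged livers 0 of 76 members were called by DESeq2, where 1.14% of 10236 genes were. None of the 77 had an unadjusted p under 0.05, where 1103 of all 11804 genes did. Filtered edgeR also gave 0 and 0, and edgeR on all genes called 1, Cox6a2, whose mean was under 10. The median was 0.05, with 20 of 77 below 0. The smallest unadjusted p by DESeq2 were those of Cox6a2 (0.0156), Sdhc (0.0852), Atp5b (0.0895), Atp5s (0.0955) and Ndufb4 (0.171). The likelihood ratio test across the 3 ages called 10 of 79 members, against 6.96% of 12430 genes. In 74 of the 77 members the young mean was the highest; the middle-aged mean was the lowest in 56 and the aged mean in 20.

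**Figure D3:**
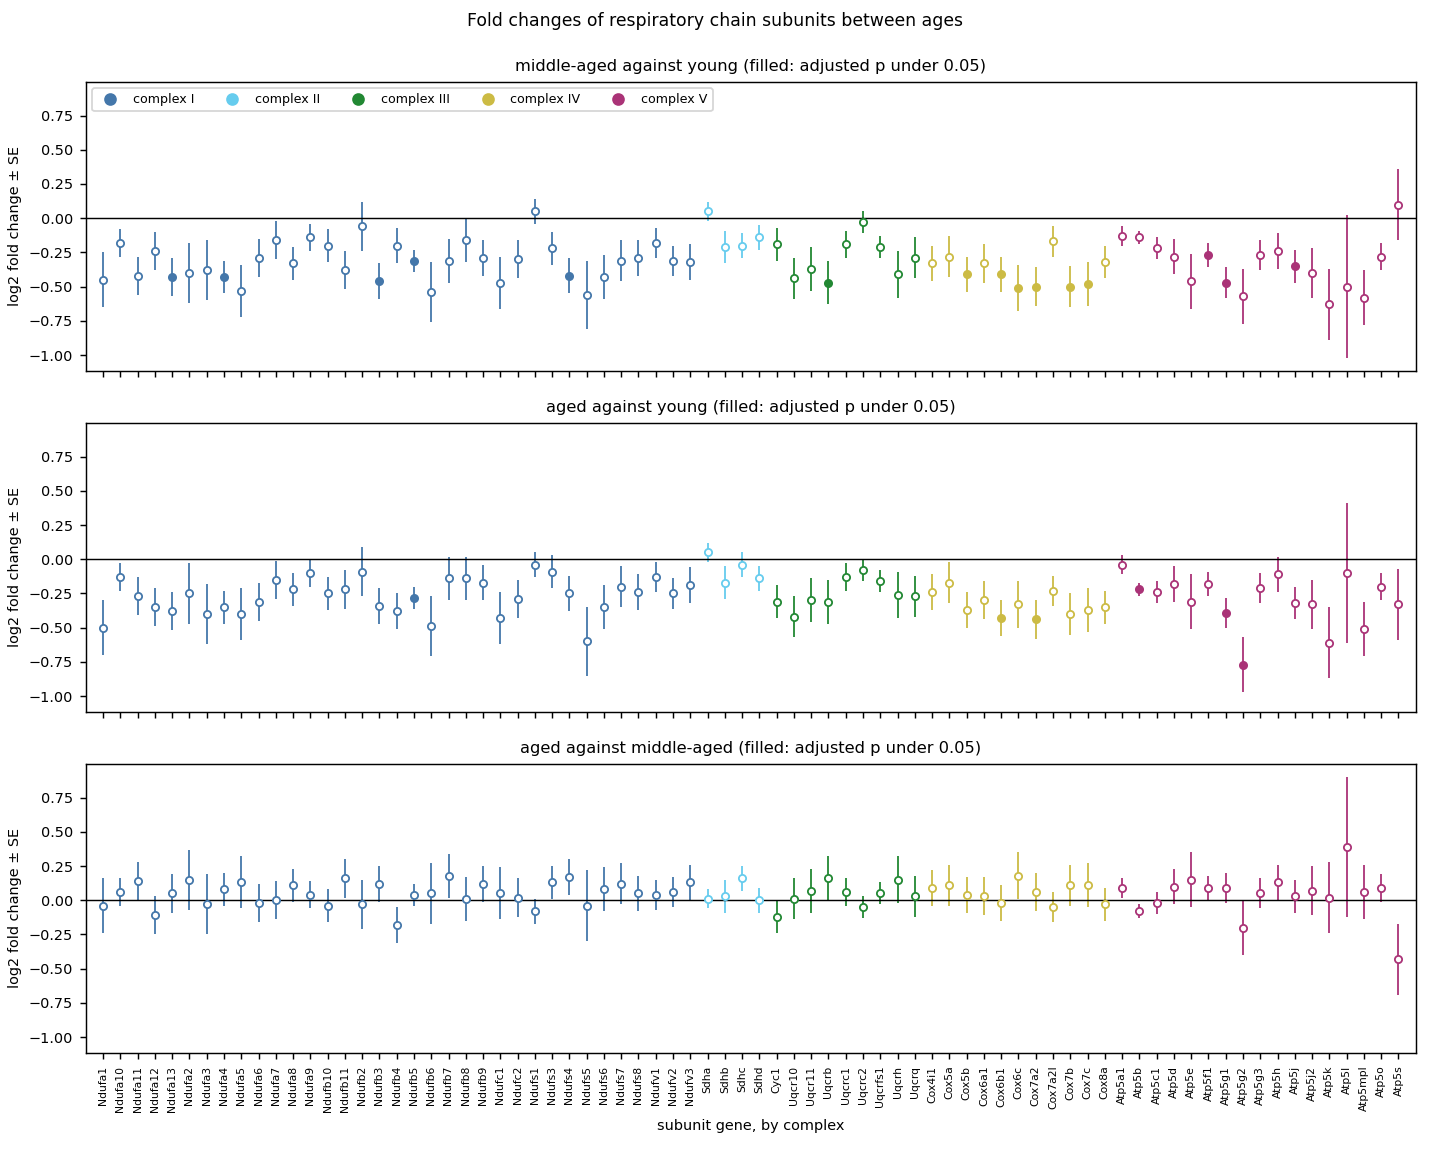
Log2 fold change with its standard error for each of 76 subunit genes in the 3 pairs of ages, coloured by complex; filled circles have a DESeq2 adjusted p under 0.05. Nearly all circles lie below 0 in the upper and middle panels, with medians of -0.31 and -0.25 over the 77 members, and they scatter around 0.05 in the lower one, where none is filled.

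The members called in both comparisons with young liver were Atp5g1, Ndufb5, Cox6b1 and Cox7a2. Being lower does not set them apart, since 74 and 76 of the 77 members were below 0, where 48.7% and 48.6% of all genes were. Both comparisons share the same young livers. Without young replicate 2, Atp5g1 was called in middle-aged livers and Atp5b and Atp5g2 in aged livers, so none was called in both. Promoters of the 4 genes called in both full comparisons are shown. Beside them is that of Sdhd, which was not called and holds the most kinds of the motifs searched. Each line gives 150 bases on the gene's strand, from RefSeq on GRCm38.p6, which end at the RefSeq start or up to 53 bases before it, and capitals mark a motif match.
Atp5g1: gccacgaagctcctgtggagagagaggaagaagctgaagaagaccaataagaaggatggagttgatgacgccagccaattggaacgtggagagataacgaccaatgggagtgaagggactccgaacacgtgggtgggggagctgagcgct
Ndufb5: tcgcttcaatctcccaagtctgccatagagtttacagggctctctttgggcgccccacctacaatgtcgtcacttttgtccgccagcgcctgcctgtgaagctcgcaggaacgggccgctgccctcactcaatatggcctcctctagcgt
Cox6b1: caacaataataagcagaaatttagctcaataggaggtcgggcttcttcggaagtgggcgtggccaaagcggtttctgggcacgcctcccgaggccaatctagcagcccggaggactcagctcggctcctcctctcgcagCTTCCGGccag
Cox7a2: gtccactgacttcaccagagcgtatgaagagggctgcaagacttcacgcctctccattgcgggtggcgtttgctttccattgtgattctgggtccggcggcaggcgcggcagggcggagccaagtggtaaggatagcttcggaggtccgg
Sdhd: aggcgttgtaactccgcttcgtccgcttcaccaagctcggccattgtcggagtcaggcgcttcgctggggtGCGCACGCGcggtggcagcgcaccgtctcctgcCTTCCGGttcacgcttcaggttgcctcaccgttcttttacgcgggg

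The stretches lie at chr11:96075651-96075800 (minus strand) for Atp5g1, chr3:32736860-32737009 (plus) for Ndufb5, chr7:30626132-30626281 (minus) for Cox6b1, chr9:79759859-79760008 (minus) for Cox7a2 and chr9:50603850-50603999 (minus) for Sdhd. Motifs of 4 factors known for respiratory genes were searched on both strands, from 250 bases before to 50 bases after the start, in the 68 members with a promoter in the table: CCGGAAG (the ETS family, GABP among them), GCGCANGCG (NRF1), AAGATGGCG (YY1) and TCAAGGTCA (estrogen-related receptors, whose match in Sdhd lies outside the printed stretch). CCGGAAG was found in 15 members (22.1%), against 9.12% of 27025 promoters of all genes, GCGCANGCG in 19 (27.9% against 6.47%), AAGATGGCG in 6 (8.82% against 1.49%) and TCAAGGTCA in 2 (2.94% against 0.407%). For each member the RefSeq promoter nearest its GENCODE start was used. The background took the first listed promoter of each gene, without regard to expression in liver, so these shares are not of like sets. Matches to different motifs did not overlap in any member. The median GC content was 57.2% in members and 52.7% over all promoters. Of the 15 called members with a promoter, 3 (Atp5g2, Cox6b1 and Ndufs4) held one of the first 3 motifs, as did 30 of the 49 measured members that were not called, a description of exact letters in this window without a test.

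In GRCm38 the genes themselves span chr11:96068852-96075670 (Atp5g1), chr3:32736990-32751566 (Ndufb5), chr7:30616861-30626151 (Cox6b1) and chr9:79755361-79759878 (Cox7a2). Atp5g1 is one of 3 genes that encode the c subunit, whose ring turns in the membrane part of ATP synthase, and all 3 give the same mature protein. Its normalised counts were 1870.3, 1996, 1717 and 1466 in the young livers, 1402, 1234, 1185 and 1255 in the middle-aged ones and 1484, 1178, 1289 and 1436 in the aged ones. Every middle-aged liver was below every young one, while aged replicate 1 was above young replicate 4. The log2 fold change was -0.47 ± 0.11 (SE) in middle-aged against young (adjusted p 0.00169, DESeq2) and -0.39 ± 0.11 in aged against young (adjusted p 0.0221, DESeq2). Atp5g2 stood at 204, 348, 205 and 188 in the young livers, 166, 155, 151 and 162 in the middle-aged ones and 134, 118, 124 and 174 in the aged ones, without overlap between young and either older group. It fell by 0.77 ± 0.20 on the log2 scale in aged against young (adjusted p 0.00879, DESeq2), the most negative value among the 6 called, and was at -0.57 ± 0.20 in middle-aged (adjusted p 0.0623, not called). Young replicate 2, at 348, was far from the other young livers. Atp5g3, the form with most counts per kb (1704, against 297 for Atp5g1 and 106 for Atp5g2), was not called, at -0.27 ± 0.11 and -0.21 ± 0.11 in the older groups.

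In the catalytic head of complex V, Atp5b, the beta subunit on which ATP is made, had 15206, 14617, 14289.6 and 14343 counts in the young livers, 13906, 13079, 12976 and 13136 in middle-aged and 12931, 12412, 11951 and 12940.2 in aged livers. The young livers lay above all older ones by a small margin, and Atp5b fell by 0.22 ± 0.05 on the log2 scale in aged livers (adjusted p 0.000549, DESeq2), the smallest adjusted p of any member in that pair. In middle-aged livers it was at -0.14 ± 0.05, just short of a call (adjusted p 0.0501, DESeq2). Its partner Atp5a1, with 10752 ± 817 in the young livers, 9848 ± 289 in the middle-aged ones and 10459.9 ± 501 in the aged ones (SD, n = 4), was at -0.13 ± 0.07 and -0.04 ± 0.07, and neither was called. The gamma subunit Atp5c1 was at -0.22 ± 0.08 and -0.24 ± 0.08, with groups that did not overlap young in either pair but without a call. In the peripheral stalk, which holds the head still, Atp5f1 fell by 0.27 ± 0.09 and Atp5j by 0.35 ± 0.12 in middle-aged livers (adjusted p 0.0347 and 0.0485, DESeq2), while Atp5o was at -0.28 ± 0.10 (adjusted p 0.0777). Atp5j shares 397 bases with the opposite strand of Gabpa, and how strand was counted is not given in the sources used here. Atp5s was at 0.10 ± 0.26 and -0.33 ± 0.26.

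Complex IV had the lowest median of the 5 complexes. Its 11 measured subunits had a median log2 fold change of -0.41 in middle-aged livers, 24.5% lower, and -0.35 in aged livers. In the middle-aged comparison 6 of the 11 fell, where 2.9% of all genes were called as lower. The 6 were Cox5b, Cox6b1, Cox6c, Cox7a2, Cox7b and Cox7c. These surround the mitochondrially encoded core where oxygen is reduced. Cox7a2 had 1909, 2336, 1851 and 1643 counts in the young livers, 1422, 1268, 1385 and 1396 in the middle-aged ones and 1621, 1116, 1314 and 1643 in the aged ones. Aged replicate 4 was as high as the lowest young liver to the nearest count, and the middle-aged livers were all below young. Cox7a2 fell by 0.50 ± 0.14 in middle-aged (adjusted p 0.00959, DESeq2) and by 0.44 ± 0.14 in aged livers (adjusted p 0.0386, DESeq2).

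Cox6b1, which faces the cytochrome c side, had 2049.7, 2643, 1928 and 2034 counts in the young livers, 1679, 1586, 1609.7 and 1657 in the middle-aged ones and 1918, 1393, 1368 and 1762 in the aged ones. Neither older group overlapped young, although aged replicate 1 was close to young replicate 3. It fell by 0.41 ± 0.13 and by 0.43 ± 0.13 (adjusted p 0.0336 and 0.0338, DESeq2). Cox6c and Cox7b fell by 0.51 ± 0.17 and 0.50 ± 0.15 in middle-aged livers (adjusted p 0.0477 and 0.0181, DESeq2), but aged replicate 4 overlapped young for both, as did aged replicate 1 for Cox6c, and the aged values, -0.33 ± 0.17 and -0.40 ± 0.15, were not called. Cox5b and Cox7c fell by 0.41 ± 0.13 and 0.48 ± 0.16 in middle-aged livers (adjusted p 0.0336 and 0.0405, DESeq2). Cox4i1 was at -0.33 ± 0.13 and -0.24 ± 0.13, and Cox5a at -0.28 ± 0.15 and -0.17 ± 0.15, none called. Cox6a1 (-0.33 ± 0.14), Cox8a (-0.32 ± 0.12) and Cox7a2l, a factor that links complexes III and IV (-0.17 ± 0.11), were likewise not called in middle-aged livers.

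**Figure D4:**
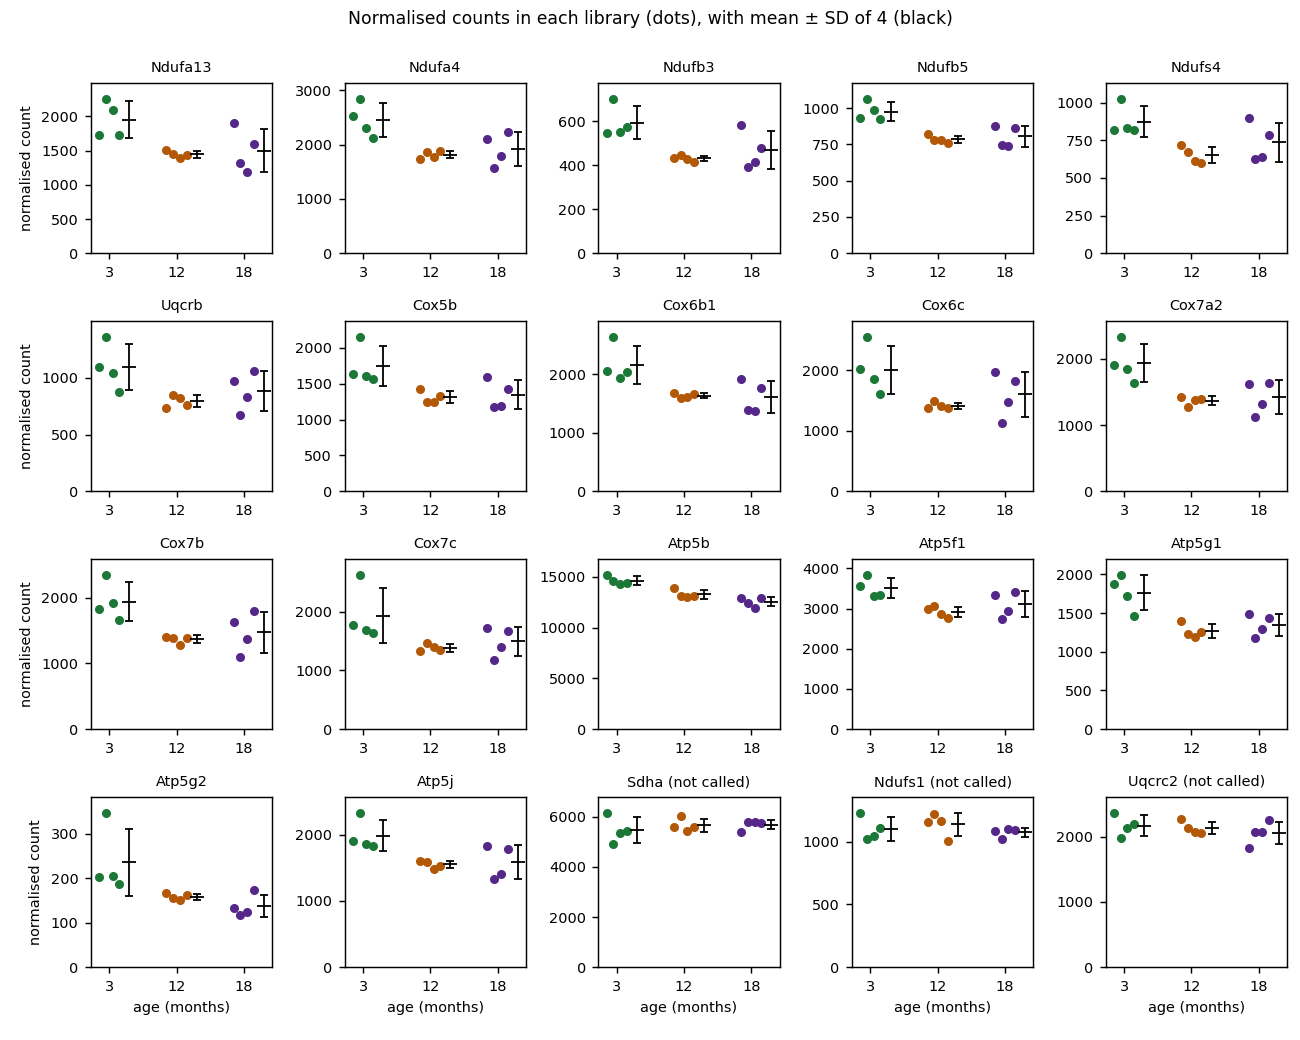
Normalised counts in every library (dots, by age in months) with the mean and SD of 4 livers (black) for the 17 subunits called in any comparison and for Sdha, Ndufs1 and Uqcrc2, which were not; every vertical axis starts at 0. Middle-aged dots are tightly grouped below the young ones in the called genes. The aged dots are more spread and reach the young range, except in Ndufb5, Cox6b1, Cox7a2, Atp5b, Atp5g2 and Atp5j, where they stay below every young dot.

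In complex I, which holds the most members, the median was -0.31 in middle-aged and -0.25 in aged livers. In middle-aged livers 5 of 36 measured members fell, none of them a core subunit, where 2.9% of all genes were called as lower. Ndufb5 had 932, 1065, 985 and 922 counts in the young livers, 819, 780.2, 778 and 762 in the middle-aged ones and 874, 744, 737 and 865 in the aged ones. All 8 older livers were below all young ones, and Ndufb5 fell by 0.31 ± 0.08 and by 0.28 ± 0.08 (adjusted p 0.00889 and 0.0362, DESeq2). Its annotated exons share 616 bases with Mrpl47 on the opposite strand. Ndufa4, now known to bind complex IV, was at 2534, 2849, 2314 and 2116 in young and 1744, 1858, 1776 and 1887 in middle-aged livers. These did not overlap, with a fall of 0.43 ± 0.12 (adjusted p 0.0132, DESeq2). Ndufb3 fell by 0.46 ± 0.13, Ndufs4 by 0.42 ± 0.13 and Ndufa13 by 0.43 ± 0.14 in middle-aged livers (adjusted p 0.0157, 0.0311 and 0.0424, DESeq2). None of these 4 was called in aged livers, where Ndufa4 was at -0.35 ± 0.12, Ndufb3 at -0.34 ± 0.13, Ndufs4 at -0.25 ± 0.13 and Ndufa13 at -0.38 ± 0.14.

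The 7 core subunits of complex I, which carry the flavin and the iron-sulfur clusters and are conserved from bacteria, had smaller values. Their median was -0.22 in middle-aged and -0.14 in aged livers, against -0.33 and -0.28 for 29 other genes named for complex I, Ndufa4 among them. None of the core subunits was called by DESeq2 or either edgeR fit. By DESeq2 3 and 1 of them had an unadjusted p under 0.05, where 2499 and 2048 of all 11804 genes did. Whether the core subunits differ from the others was not tested. Ndufv1, the NADH-binding subunit, was at -0.18 ± 0.11 and -0.13 ± 0.11, and Ndufv2 at -0.31 ± 0.11 and -0.25 ± 0.11. Ndufs3 was at -0.22 ± 0.12, Ndufs7 at -0.31 ± 0.15 and Ndufs8 at -0.29 ± 0.13 in middle-aged livers. Ndufs1 had 1230.2, 1020.1, 1043 and 1107 counts in the young livers, 1158, 1223, 1165 and 1003 in the middle-aged ones and 1087, 1018, 1098 and 1089 in the aged ones. All 3 groups overlapped, at 0.05 ± 0.09 and -0.04 ± 0.09, and young replicate 2, the library with the highest mean deviation of the members, was the lowest young liver for it.

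Complex III had a median of -0.29 in middle-aged and -0.27 in aged livers. In middle-aged livers 1 of its 9 members, Uqcrb, fell, where 2.9% of all genes were called as lower. Uqcrb, a small accessory subunit, had 1098, 1363, 1045 and 871 counts in young and 731, 847, 826 and 764 in middle-aged livers, which lay just below young replicate 4. The fall was 0.47 ± 0.16 (adjusted p 0.0483, DESeq2), and the aged value of -0.31 ± 0.16 was not called. The redox subunits Cyc1 (cytochrome c1) and Uqcrfs1 (the Rieske iron-sulfur protein) were at -0.19 ± 0.12 and -0.21 ± 0.08 in middle-aged and -0.31 ± 0.12 and -0.16 ± 0.08 in aged livers. Of the core proteins, Uqcrc1 was at -0.19 ± 0.10 and Uqcrc2 at -0.03 ± 0.08 in middle-aged livers, neither called.

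Complex II is the single complex encoded wholly in the nucleus and also an enzyme of the tricarboxylic acid cycle. None of its 4 genes was called by DESeq2 in any comparison, and 1, Sdhc, had an unadjusted p under 0.05 in middle-aged livers. Both edgeR fits also called 0, with 0 at an unadjusted p under 0.05. Sdha, the flavoprotein that oxidises succinate, had 6164, 4931, 5371 and 5441 counts in the young livers, 5576, 6031, 5448 and 5575 in middle-aged and 5401, 5799.7, 5809 and 5734 in aged livers. The groups overlapped, with 0.05 ± 0.07 in each older group, and young replicate 2 had the lowest count of all. Sdhb, the iron-sulfur subunit, was at -0.21 ± 0.12 and -0.17 ± 0.12. The membrane anchors Sdhc and Sdhd were at -0.20 ± 0.09 and -0.14 ± 0.09 in middle-aged and at -0.04 ± 0.09 and -0.14 ± 0.09 in aged livers.

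Values below 0 were also common among short genes in general, and subunit genes are short. The members' median exonic length was 1718 bases, against 4448 over all genes with a mean of at least 10. In middle-aged against young, the 292 other genes under 1000 bases had a median of -0.24 and the 17 members of that length -0.43. Between 1500 and 2500 bases it was -0.11 for other genes and -0.27 for 22 members, and over 4000 bases 0.07 and -0.23 (10 members). Members were thus below other genes of like length in each class of both comparisons with young. With offsets for exonic length and GC content in each library, the members' median was -0.16 in middle-aged and -0.15 in aged livers, with 4 (Ndufa13, Ndufb5, Cox7b and Atp5g1) and 8 members called, where 5.78% and 4.21% of all genes were. The 4 calls in middle-aged livers are therefore a share near that of all genes. Genes under 1500 bases, members included, had a median deviation of 0.32 in young replicate 2, 0.18 in aged replicate 1 and -0.16 and -0.20 in aged replicates 2 and 3. The part of length in the subunit results was not tested beyond these offsets, and its part in the differences between complexes was not tested.

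**Figure D5:**
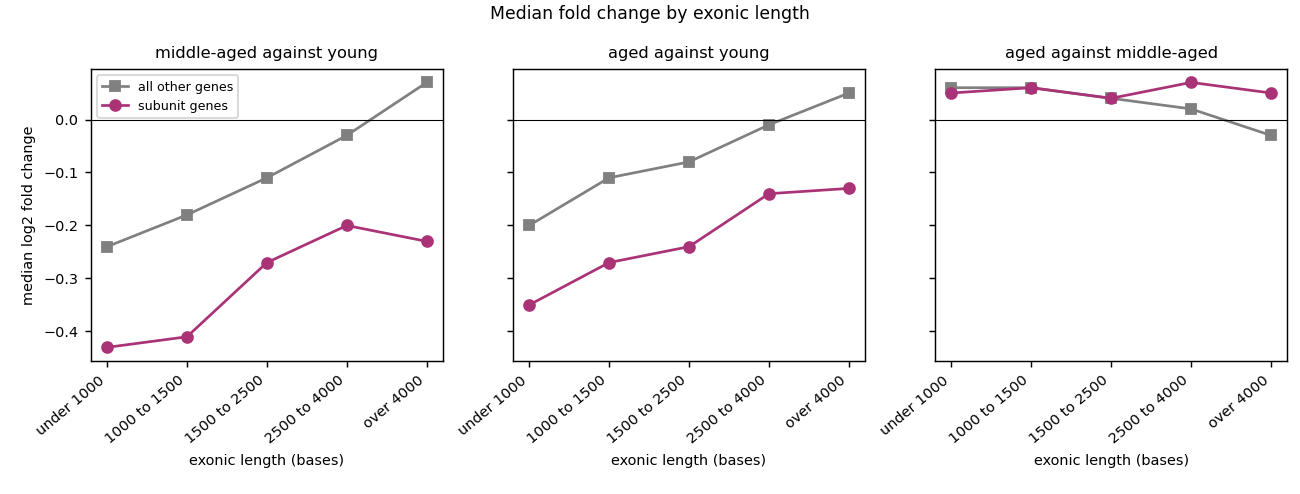
Median log2 fold change of the subunit genes (circles) and of all other genes at a mean of 10 or more (squares) in 5 classes of exonic length, for the 3 pairs of ages. Medians are higher in the longest than in the shortest class in the comparisons with young liver, at -0.23 against -0.43 for the subunits and 0.07 against -0.24 for other genes in middle-aged livers, and lie near 0 between aged and middle-aged livers.

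Subunits encoded by mitochondrial DNA were lower as well. Rows for mt-Nd3, mt-Nd4l and mt-Atp8 had no counts, and those for mt-Co2, mt-Co3 and mt-Atp6 few, so 7 of the 13 could be tested. The summed normalised counts of the list ran from 640441 to 1932858 in the young livers, 549418 to 763476 in middle-aged and 453629.9 to 638499 in aged livers, with young replicate 2 the highest and middle-aged replicate 4 above young replicate 4. Of the 7, mt-Cytb fell in middle-aged livers by 0.98 ± 0.33 (adjusted p 0.0487, DESeq2), where 2.9% of all genes were called as lower. In aged livers 6 fell, all but mt-Nd1, where 1.71% of all genes were called as lower. Among the 6, mt-Nd2 fell by 1.28 ± 0.34 and mt-Co1 by 0.84 ± 0.23 (adjusted p 0.00874 and 0.0169, DESeq2). Without young replicate 2 the calls were 1 and 5, where 3.08% and 1.92% of all genes were called. Filtered edgeR gave 0 and 1 (2.31% and 1.4% of all genes). EdgeR on all genes, which also tested the rows with few counts, gave 9 and 9 (4.06% and 3.09%).

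Other lists of the pathway had medians nearer to 0. Of 46 measured assembly factors, 1 fell in middle-aged livers, where 2.9% of all genes were called as lower. It was Ndufaf4, a complex I assembly factor, by 0.51 ± 0.15 (adjusted p 0.0191, DESeq2). None of 47 fell in aged livers, with 8 at an unadjusted p under 0.05, where 2048 of all 11804 genes were. There edgeR on all genes called 1 (3.09% of all genes) and filtered edgeR 0 (1.4%). The list's medians were -0.17 and -0.14. Among 25 electron carriers and partners, Cycs, the mobile cytochrome c, went from 646 ± 160.1 counts in young to 386 ± 30.8 in middle-aged livers (SD, n = 4), a fall of 0.74 ± 0.19 (adjusted p 0.00579, DESeq2). The mitochondrial phosphate carrier Slc25a3 fell by 0.23 ± 0.06 (adjusted p 0.0101, DESeq2). These were the 2 calls of the 25 in middle-aged livers, where 2.9% of all genes were called as lower. In aged livers Coq3 and Coq10b, genes of ubiquinone synthesis and handling, fell by 0.53 ± 0.12 and 0.83 ± 0.22 (adjusted p 0.00194 and 0.0117, DESeq2), where 1.71% of all genes were called as lower. The medians of the carriers were -0.11 and -0.14. None of the 16 tricarboxylic acid cycle enzymes was called by DESeq2, with medians of -0.05 and -0.07. At an unadjusted p under 0.05 there were 4 in middle-aged and 5 in aged livers, where 2499 and 2048 of all 11804 genes passed. Filtered edgeR called none, and edgeR on all genes called 1 in aged livers (3.09% of all genes).

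Among 16 regulators of respiratory genes, with medians of 0.02 and 0.05, 1 passed the DESeq2 test in middle-aged livers, where 6.41% of all genes did. EdgeR on all genes called 2 there (4.06% of all genes) and filtered edgeR 1 (2.31%). Ppargc1b, a coactivator of such genes, had 25.8 ± 3.36 counts in the young livers, 58.6 ± 14.6 in the middle-aged ones and 26.3 ± 7.24 in the aged ones (SD, n = 4). It rose by 1.18 ± 0.29 on the log2 scale in middle-aged against young (adjusted p 0.00278, DESeq2) and fell by 1.16 ± 0.28 in aged against middle-aged (adjusted p 0.00763, DESeq2), where filtered edgeR called none of the list and had 2 at an unadjusted p under 0.05. Its relative Ppargc1a was at -0.17 ± 0.34 and -0.81 ± 0.34, not called, and Nrf1, Gabpa, Esrra, Yy1 and Tfam were at 0.07, 0.40, -0.02, 0.19 and 0.20 in middle-aged livers, none called.

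Red blood cell markers, like the subunits, were highest in young replicate 2. Their summed normalised counts were 22971 to 86375 in the young livers, 12819 to 49858 in the middle-aged ones and 9672 to 21237 in the aged ones. All 6 genes had counts, and 2, Hbb-bs and Alas2, fell in aged livers, where 1.71% of all genes were called as lower. None of the 6 was called there without young replicate 2. Their medians were -0.54 in middle-aged and -1.83 in aged livers, and 0.07 and -1.24 without that library. EdgeR on all genes called 4 and 5 of them (4.06% and 3.09% of all genes), and filtered edgeR 0 in either comparison (2.31% and 1.4%). Kupffer cell markers (10 of 10 with counts) ran from 3884 to 7051, 3439 to 4672 and 4026 to 6721 in young, middle-aged and aged livers, with the highest values in young replicate 2 and aged replicate 1. Their median log2 fold change was -0.39 in middle-aged livers, with 9 of 10 below 0, against -0.31 for the subunits, and it was -0.09 in aged livers. In middle-aged livers 4 were at an unadjusted p under 0.05 (DESeq2, where 2499 of all 11804 genes were), none called. EdgeR on all genes called 5 of them in middle-aged livers (4.06% of all genes) and filtered edgeR 0 (2.31%), and without young replicate 2 the median was -0.22. In aged livers 1 of them, Marco, rose, where 253 of all 13527 genes tested were called as higher. The call of Marco was lost without young replicate 2 and in filtered edgeR. Endothelial markers were at 2213 to 3299.9, 2093 to 2461 and 2209.7 to 2458, stellate cell markers at 2219 to 4253, 2947 to 5036 and 2869 to 4474, and biliary markers at 382 to 464, 236 to 589 and 356 to 558. Ecm1 of the stellate list and Sox9 of the biliary list rose in aged livers, where 253 of 13527 genes were called as higher. These calls are from the DESeq2 fit of all 12 libraries. Striated muscle markers summed to 696 for young replicate 3 and to 851 for middle-aged replicate 3, against at most 62.55 elsewhere. Of 2 tested in aged against young, 1, with a mean under 10, was called as lower, where 1.71% of all genes were. Lymphoid markers ran from 134 to 484 over all libraries. The brown fat list, which includes the members Cox7a1 and Cox8b, summed to 3091 to 5178, 1122 to 2185 and 1466 to 2787. Most of it was Elovl3, a lipid elongase also expressed in liver. Elovl3 fell in both older groups, where 2.9% and 1.71% of all genes were called as lower. Cidea rose in aged livers, where 253 of 13527 genes were called as higher. The part of these cell types in the subunit results was not tested.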

How the data were processed

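Liver RNA-seq of 12 mice (4 per age) was analysed from 1 table of counts deposited by the authors: whole-number read counts per gene, not normalised, with 92 spike-in rows that were left out of library sizes and tests. The submitters' processing notes name STAR 2.5.2b, SAMtools 1.9, featureCounts, R 3.6.3, edgeR 3.28.1 and DESeq2 1.26.0 and the builds mm10 and GRCm38; the labels name a directional library kit, and the strand setting of the counting is not given in the sources used here. Symbols, positions and exonic lengths came from GENCODE M21 on GRCm38, in which 53360 of 53465 identifiers were found, and promoters from RefSeq (GRCm38.p6), matched for 68 of 85 members.

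All 12 libraries entered one DESeq2 1.42.0 fit (R 4.3.3) scaled by median-of-ratios size factors, with no covariate beside age and default filtering, with the tool and threshold the study names (adjusted p under 0.05). Each pair was tested by the Wald test, and a likelihood ratio test covered the 3 ages; p-values were adjusted over all genes tested. Fold changes are unshrunken and, like their SE, on the log2 scale. The scripts were tested on simulated data. Alternatives were edgeR 4.0.16 quasi-likelihood tests, other scaling factors, filters, a replicate block and offsets for length and GC content. Others were a term for replicates 1 and 2 against 3 and 4, subsets of libraries and leaving out each library. Filtered edgeR and the offsets without young replicate 2 were added after the data had been seen.

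Members and lists were chosen with earlier results of these data known. Named genes are all members called in any comparison, the catalytic, core and isoform-group subunits, the 5 members with the smallest p in each pair, the extremes of level per kb in each complex, and list genes called in any comparison except 1 striated muscle marker. A gene that this rule covers is not reported here by name or drawn, and it stays in the counts and medians. Depth was 8124312 to 10527159 counts per library, where 3 counts equal 0.285 to 0.369 CPM. All replicates of an age differed by more than counting noise (smallest chi-square per gene 11.2 over 8888 genes).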

Additional observations from a re-analysis of the deposited data

Results flagged for a closer look

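Within each age, the highest or lowest of the 4 livers was marked when it stood apart from the rest by more than the 95% limit of Dixon's gap-to-range ratio. Of 81 groups examined 10 were marked, where 4.05 would be expected at 1 in 20 if the groups were independent. They are not, because the members of a library were often high or low together, so these numbers do not test for an excess. Young replicate 2 was the high value in 7 of them: Ndufb3 at 702 normalised counts (548 to 571 in the other young livers), Ndufs4 at 1027 (817 to 834), Cox5b at 2156 (1567 to 1637), Cox6b1 at 2643 (1928 to 2049.7), Cox7c at 2630 (1637 to 1775), Atp5g2 at 348 (188 to 205) and Atp5j at 2333 (1836 to 1899). This is the library with the largest shares of mitochondrially encoded and spike-in counts. Without it, the log2 fold change between middle-aged and young livers was -0.37 for Ndufb3, -0.33 for Ndufs4, -0.29 for Cox5b, -0.30 for Cox6b1, -0.30 for Cox7c, -0.33 for Atp5g2 and -0.27 for Atp5j, none of them called by DESeq2.

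Cox7b was low in middle-aged replicate 3, at 1283 against 1393 to 1405 in the other middle-aged livers. The mean log2 deviation of complex IV in middle-aged replicate 1, at -0.114, stood above the other middle-aged livers (-0.148 to -0.144), a small distance in absolute terms. Young replicate 3 had counts on 22284 genes, against 16361 to 16579 in the other young livers. Among 12 rows with subunit symbols that are not protein-coding, Ndufb1-ps, annotated as a non-coding RNA from a bidirectional promoter, had the most counts, with a lowest normalised count of 68.4 and a highest of 157 over the 12 libraries.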

How the results depend on the processing

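The direction of the members' medians against young liver held under all 27 alternatives, between -0.36 and -0.13 in middle-aged and between -0.36 and -0.12 in aged livers, with both values nearest 0 from the offsets for length and GC content without young replicate 2. The numbers of members called did not hold, and the share of all genes called moved with many of them. For middle-aged against young (15, with 6.41% of all genes), edgeR on all genes gave 26 (4.06%), no independent filtering 6 (1.56%), only the groups compared 43 (11.2%), the offsets 4 (5.78%), the offsets without young replicate 2 gave 2 (2.91%), and filtered edgeR (2.31%) and the fit without young replicate 3 and middle-aged replicate 1 (2.14%) each 1. Within replicates 1 and 2 it was 0 (2.07%, with 28 members at an unadjusted p under 0.05, DESeq2), and within replicates 3 and 4 it was 1 (3.62%). For aged against young (6, with 3.58%) the counts were 3 without independent filtering (1.13%) and 1 with only the groups compared (2.04%). Within those sets they were 1 (1.19%) and 0 (4.36%, with 9 members at an unadjusted p under 0.05, DESeq2). Without young replicate 3 and middle-aged replicate 1 it was 2 (2.21%), and by filtered edgeR 0 (1.4%). For aged against middle-aged, edgeR on all genes called 1 (1.57%). Across the 3 ages (10, with 6.96%) the counts were 22 by edgeR on all genes (5.25%) and 0 by filtered edgeR (1.89%, with 36 members at an unadjusted p under 0.05). They were 2 and 1 within the sets (2% and 5.1%), 4 without the 2 libraries (3.46%) and 3 with the offsets and no young replicate 2 (4.24%). The causes were not tested.

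Leaving out each library in turn gave 1 (without young replicate 2, 3.08% of all genes) to 29 (without aged replicate 1, 9.73%) calls in middle-aged against young, 1 (without aged replicate 2 or 3, 2.61% and 1.77%) to 33 (without aged replicate 1, 10.4%) in aged against young, 0 in aged against middle-aged and 2 (4.07%) to 37 (13.2%) across the 3 ages, from the same libraries as the first range. In middle-aged against young, 5 were called without young replicate 3 (3.11% of all genes). Without middle-aged replicates 2, 3 and 4 it was 4, 2 and 5 (4.04%, 3.49% and 4.85%). In aged against young, 2 were called without young replicate 1 or 2 (3.12% and 1.92% of all genes). It was 3 without young replicate 3 (2.41%) or any one middle-aged liver (3.1% to 3.5%), and 12 without aged replicate 4 (2.6%). Across the 3 ages, 6 were called without young replicate 3 (4.63%), middle-aged replicate 2 (4.21%) or middle-aged replicate 3 (5.12%) and 17 without young replicate 4 (5.78%). The medians ranged from -0.36 to -0.22, -0.36 to -0.16 and -0.03 to 0.13.

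Replicate numbers did not pair the libraries, since 2 of 12 same-numbered correlations of deviations exceeded 0.1 and 1 of 12 was the best for its number. With a replicate block the calls were 2, 1 and 2 for middle-aged against young, aged against young and the 3 ages (3.23%, 2.85% and 3.47% of all genes). With the block and the offsets together they were 1 and 3 for the first and the last (2.97% and 3.86%). A term for replicates 1 and 2 against 3 and 4 gave 13, 5 and 11 (6.18%, 3.7% and 7.1%). No named member changed sign where it was called. Members with a mean under 10 were too shallow for any statement on age.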
